A study of Bos taurus with 6 samples.

Results

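The 7 genes described here control and carry out the mitochondrial pathway of apoptosis in bovine oocytes. They are the anti-apoptotic BCL2L10, BCL2L1 and MCL1, the pro-apoptotic BAX, BAK1 and BID, and the initiator caspase gene CASP9, and their probes were chosen by gene symbol in the array's platform annotation. That annotation gave 12 probes for 6 of the 7 genes, among 15229 gene symbols in all. No probe carried the symbol of BCL2L10, so it was not analysed here. BCL2L1, MCL1 and CASP9 had 3 probes each, and BAX, BAK1 and BID had 1 each. None of the 5 genes that could be tested passed the test over the 3 cows, in which no probe of the whole array passed. The ratios of BID and of 1 probe each of MCL1 and CASP9 differed between cows, which is 3 of 11 probes tested, against 47.4% of all probes.

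The RNA came from oocytes of 3 cycling Holstein cows of the second parity, each given follicle-stimulating hormone (FSH) every 12 h for 3 days and then none for a coasting period of 68 h. Control oocytes came from this protocol alone. Antagonist oocytes came from the same cow in another round, at least a month apart, in which a gonadotropin-releasing hormone (GnRH) antagonist, labelled cetrotide, was given throughout the 68 h. Both RNAs of a cow shared a 2-colour array, hybridised once in each dye orientation, which gave 6 arrays and 3 replicates.

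Proteins of the BCL2 family decide whether the outer mitochondrial membrane is opened in the intrinsic pathway of apoptosis. BAX and BAK1 form the openings, BCL2L1, MCL1 and BCL2L10 hold them in check, and BID is a BH3-only protein that caspase-8 cleaves into an activator of BAX and BAK1. Cytochrome c that leaves the mitochondria assembles APAF1 into the apoptosome, which activates caspase-9. In follicles that lose gonadotropin support, atresia is known mainly as apoptosis of granulosa cells, whereas these arrays read oocytes from which cumulus cells had been stripped.

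Signal was weak for many of these probes. A probe counted as above background in a reading when its raw spot mean was over a threshold set by the 152 negative control spots in the same channel, their mean plus 2 SD, and 55.8% to 77.5% of all probes per channel did so. It was tested when at least 3 of the 6 readings of either condition did so, as for 32527 probes and 11 of the 12 probes described here. By the median of its 12 readings, BID was at 9.25 times this threshold, the brightest MCL1 probe at 5.16 times and the brightest CASP9 probe at 2.26 times. The brightest BCL2L1 probe was at 1.44 times and BAX at 1.29 times. In all, 7 of the 11 tested probes had a median under 2 times the threshold. These multiples show how far a probe was from background and do not rank the transcripts. The signal plot shows these readings against the threshold, and BAK1 below it in every reading. Of 15 oocyte markers, 14 were above background in all 12 readings, among them GDF9, BMP15 and ZP3.

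**Figure D1:**
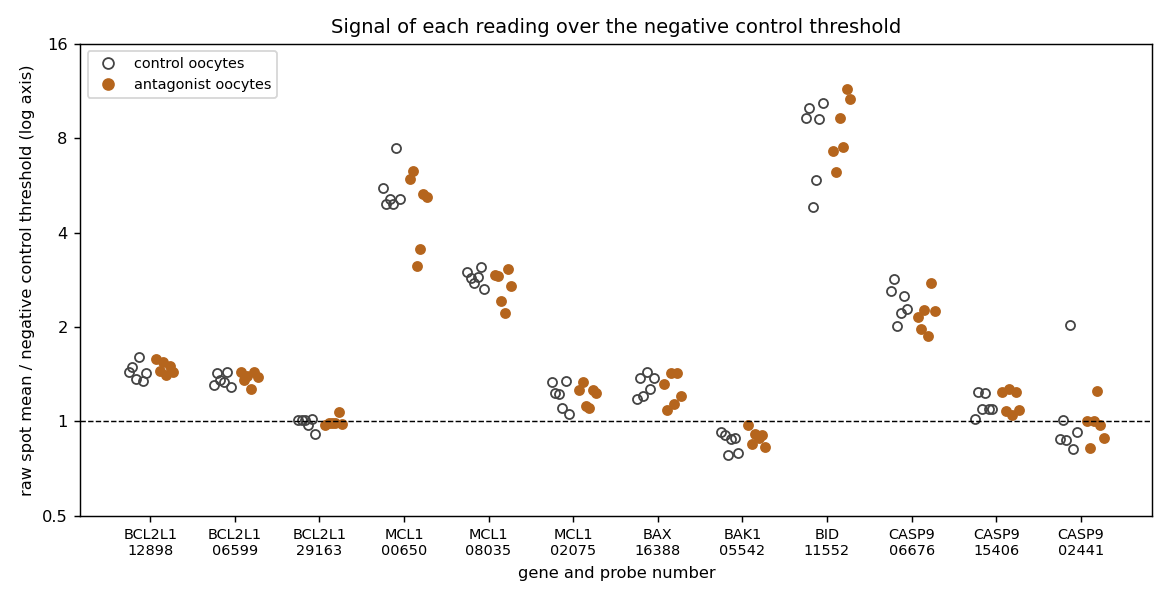
Raw spot mean of each of the 12 probes divided by the negative control threshold of its channel (log axis), with 6 control readings (open) and 6 antagonist readings (filled) per probe. BID and the brightest MCL1 probe stand well above the dashed line at 1, and all 12 readings of BAK1 lie below it.

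Over the 3 cows, none of the 11 tested probes passed limma at an adjusted p under 0.05, against 0 of 32527 probes tested (0%). None had an unadjusted p under 0.05 either, against 12.7% of all probes (6.72% higher and 6.02% lower with antagonist). That count varied with the cows used: the 4143 probes became 7408 without cow 1, 2579 without cow 2 and 1591 without cow 3. Each of these fits had fewer cows, and none of the 11 probes passed in any of them. The lowest adjusted p among them was 0.483, for BAX. All ratios are on the log2 scale and positive where antagonist was higher, means carry the SD of the 3 cows, and intervals are limma's 95% confidence intervals. Mean ratios were above 0 for 4 of the 11 probes and below 0 for 7, against 51.4% above 0 over all probes. The median of the 11 was -0.030, and that of all probes 0.0027. Apart from BID, no probe had a mean ratio further from 0 than 0.11. The same sign in all 3 cows was seen in 3 of the 11, against 36.0% of all probes, and these were 1 BCL2L1 probe, BAX and the dimmest CASP9 probe.

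**Figure D2:**
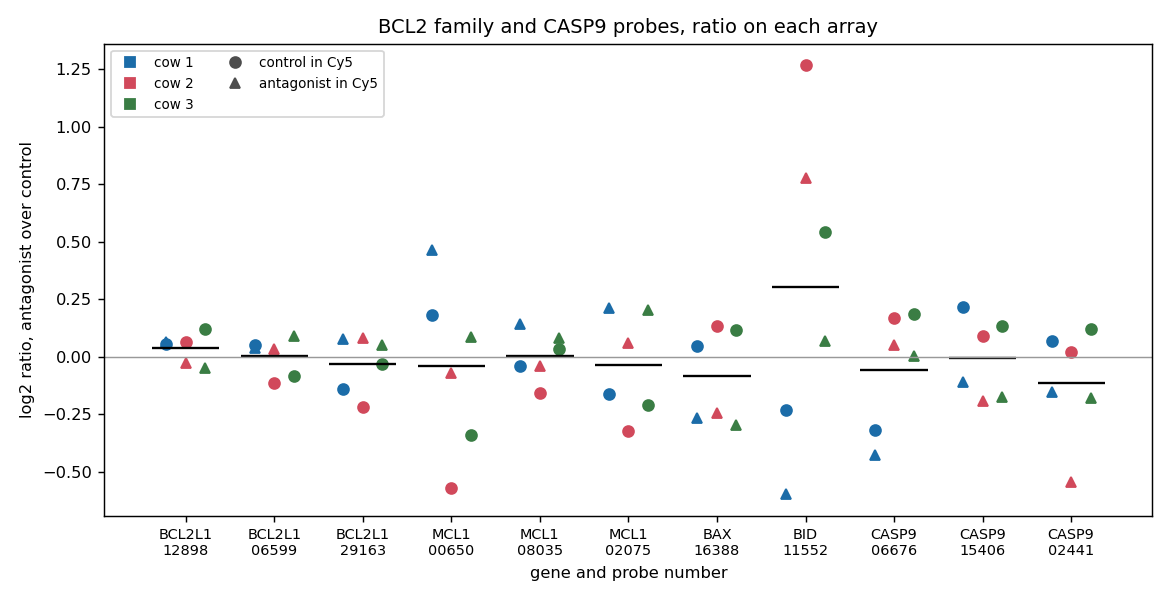
Log2 ratio of antagonist over control on each of the 6 arrays for the 11 tested probes, coloured by cow, with circles for control in Cy5, triangles for antagonist in Cy5 and a black line at the mean. BID spans -0.60 to 1.27, BAX lies above 0 in the first orientation and below 0 in the second, and BCL2L1 stays within 0.22 of 0.

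BCL2L1, which encodes the anti-apoptotic protein BCL-XL, had ratios near 0 in every cow. Its brightest probe had ratios of 0.057 and 0.064 in cow 1, 0.066 and -0.025 in cow 2, and 0.12 and -0.049 in cow 3, with control in Cy5 first in each pair here and below. In every cow the 2 arrays lay close to 0, and their mean was slightly positive. The mean over cows was 0.039 ± 0.021 (adjusted p = 0.742), with an interval from -0.074 to 0.15. The second probe had 0.0035 ± 0.042. The dimmest had -0.030 ± 0.038 and was above background in 5 of its 12 readings. The intervals of these 3 probes did not reach a 1.5-fold change in either direction, on intensities to which an offset of 50 had been added, which shrinks ratios near background.

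MCL1, which encodes a short-lived guardian of the mitochondria, was well above background and went different ways in different cows. Its brightest probe had ratios of 0.18 and 0.46 in cow 1, -0.57 and -0.070 in cow 2, and -0.34 and 0.085 in cow 3. Cow 1 was above 0 on both arrays and cow 2 below 0 on both, whereas the arrays of cow 3 disagreed. The cow means were 0.32, -0.32 and -0.13, and the mean was -0.042 ± 0.33 (adjusted p = 0.945, interval -0.48 to 0.39). The sign of this mean was not stable: it was 0.097 without cow 2 and 0.0015 without cow 3. The other MCL1 probes moved less, with cow means of 0.051, -0.098 and 0.058 for the second and 0.025, -0.13 and -0.0027 for the dimmest. They were at medians of 2.88 and 1.23 times the threshold. In all 3 MCL1 probes cow 2 had the lowest ratio.

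BAX, one of the 2 pore-forming proteins, had a small negative ratio in all 3 cows. Its arrays gave 0.046 and -0.27 in cow 1, 0.13 and -0.25 in cow 2, and 0.12 and -0.30 in cow 3. All 3 arrays with control in Cy5 were positive and all 3 with antagonist in Cy5 negative, so the sign of any 1 array followed the dye. Averaged over both orientations the cows had -0.11, -0.056 and -0.089, a mean of -0.085 ± 0.027 (unadjusted p = 0.107, adjusted p = 0.483, interval -0.20 to 0.031). The means of the orientations were 0.099 ± 0.047 with control in Cy5 and -0.27 ± 0.025 with antagonist in Cy5, a gap of 0.37 that exceeds the mean ratio. For BAK1 none of the 12 readings was above background, at 0.782 to 0.972 times the threshold, and no ratio is given.

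BID had the widest spread over cows of the 11 probes. Raw spot means in cow 1 were 1528 and 1143 for antagonist against 1584 and 1850 for control. In cow 2 they were 2148 and 1864 against 858 and 1195, and in cow 3 they were 2450 and 2179 against 1601 and 2225. After normalization the ratios were -0.23 and -0.60 in cow 1, 1.27 and 0.78 in cow 2, and 0.54 and 0.069 in cow 3. BID was thus lower with antagonist on both arrays of cow 1 and higher on the 4 arrays of the other cows. The cow means of -0.42, 1.02 and 0.31 correspond to 0.75-fold, 2.03-fold and 1.24-fold. The mean over cows, 0.30 ± 0.72, was smaller than its SD (adjusted p = 0.752, interval -0.62 to 1.23). Leaving out cow 1 gave 0.66 and leaving out cow 2 gave -0.055. Among all probes tested, BID lay at percentile 2.03 of the ratios in cow 1, 97.6 in cow 2 and 91.2 in cow 3. No other probe of the 11 reached 1.5-fold in any cow. BID did so in cow 2, where 13.0% of all probes did. In cow 1, where 1.87% of all probes did so, and in cow 3, where 4.77% did, none of the 11 reached it.

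CASP9 behaved differently from probe to probe. The brightest probe had ratios of -0.32 and -0.43 in cow 1, 0.17 and 0.049 in cow 2, and 0.19 and 0.0028 in cow 3. Only cow 1 stood apart, lower with antagonist on both arrays at 0.77-fold, and the cow means were -0.37, 0.11 and 0.095. The mean was -0.056 ± 0.27 (adjusted p = 0.902, interval -0.42 to 0.31), and 0.10 without cow 1. The second probe had cow means of 0.053, -0.053 and -0.021 and did not share the low value of cow 1. It was at a median of 1.10 times the threshold, where the offset shrinks ratios. The dimmest was above background in 5 of 12 readings and had -0.11 ± 0.13. Its cow means were -0.044, -0.26 and -0.031, and the array of cow 2 with antagonist in Cy5 had -0.55. In every cow it was positive with control in Cy5 and negative with antagonist in Cy5, so the shared sign of its cow means is weak. Probe sequences were not used here, so which transcripts each probe reads was not determined.

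**Figure D3:**
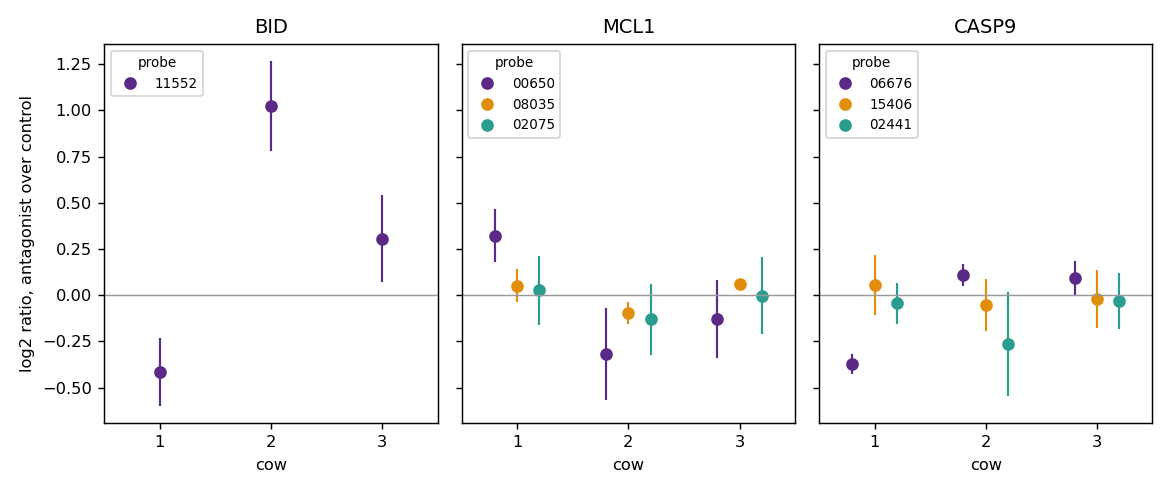
Log2 ratio of antagonist over control by cow for the probes of BID, MCL1 and CASP9, with points at the mean of a cow's 2 arrays and lines between both arrays. BID lies at -0.42, 1.02 and 0.31 in cows 1, 2 and 3, and the brightest MCL1 and CASP9 probes differ between cows more than the other probes of those genes.

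Whether cows differed was tested in limma on all 6 arrays, with cow and dye orientation in the model, so that the only error was that between the 2 arrays of a cow. By this F-test 3 of the 11 probes differed between cows at an adjusted p under 0.05, against 47.4% of all probes, so that such calls were common on the array. Across all probes the ratios of cows 2 and 3 correlated at 0.781, and those of cow 1 at 0.192 with cow 2 and 0.285 with cow 3. The 3 called were BID (adjusted p = 1.73e-06) and the brightest probes of MCL1 (0.000174) and CASP9 (0.000243). The highest and lowest cow differed by 1.44 for BID, 0.64 for MCL1 and 0.48 for CASP9, while the median of that gap over all probes was 0.22. The 3 BCL2L1 probes had gaps of 0.041 to 0.085 and BAX 0.054. Each cow gave a single pair of RNAs, so an animal and its RNA preparations cannot be told apart. In bulk oocyte RNA, less of a transcript per oocyte and fewer oocytes that carry it cannot be told apart either.

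The dye term was called by limma for 8 of the 11 probes, against 64.6% of all probes. In 5 of the 11 the arrays of the 2 orientations did not overlap, against 44.5% of all probes. These were BAX, the dimmest probes of BCL2L1 and MCL1, and both dimmer probes of CASP9. For BID the orientations overlapped, and its ratio was higher with control in Cy5 in every cow.

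Because the guardians act by binding the pro-apoptotic proteins, their log2 ratios were also set against each other within a cow, with no test. The MCL1 ratio minus the BID ratio came to 0.74, -1.34 and -0.43 in cows 1, 2 and 3. The BCL2L1 ratio minus the BID ratio came to 0.48, -1.002 and -0.27. Both differences were positive in cow 1 and negative in cows 2 and 3. Both contain the same BID ratio, and BCL2L1 was near 0 in every cow, so their shared signs are not separate results. The plan had named BAX and BAK1 for these differences, and BID was used in place of BAK1. Against BAX, BCL2L1 had 0.17, 0.076 and 0.12 and MCL1 had 0.43, -0.26 and -0.040. These are differences of RNA ratios and say nothing of protein.

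The authors' deposited table of ratios gave nearly the same values for the 12 probes, with no array further than 0.058 from the value computed from the scanner files. In that table BID had -0.25 and -0.60 in cow 1, 1.24 and 0.79 in cow 2, and 0.52 and 0.065 in cow 3. The brightest MCL1 probe had 0.17 and 0.47, -0.57 and -0.063, and -0.35 and 0.082 there. In the authors' deposited table BAX had 0.067 and -0.28, 0.14 and -0.25, and 0.13 and -0.26. The brightest CASP9 probe had -0.33 and -0.43, 0.17 and 0.055, and 0.17 and -0.0050 in the authors' deposited table. Of these 24 pairs of values 1 differed in sign, that of CASP9 in cow 3 with antagonist in Cy5, where both were near 0.

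The rest of the apoptosis machinery was described through 6 lists with 58 other genes, of which 39 were tested, each by its brightest probe. Mean ratios were above 0 for 19 and below 0 for 20, with a median of -0.00039 against 0.0044 over the 12314 genes tested. Of those 12314 genes, 6407 had a mean above 0 and 5907 below. The counts above and below 0 given for each list include means near 0. None of the 39 passed limma at an adjusted p under 0.05. At an unadjusted p under 0.05 there were 1 higher and 2 lower, or 3 of 39, against 15.1% of all genes. Cows differed by the F-test for 19 of the 39, against 54.5% of all genes. The same sign in all 3 cows was seen in 18 of the 39, against 37.7%.

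Among the other anti-apoptotic family members, BCL2L2, which encodes BCL-W, had ratios of -0.14, -0.41 and -0.13 in cows 1, 2 and 3, a mean of -0.23 ± 0.16 (limma, unadjusted p = 0.0522, adjusted p = 0.397). It was negative in every cow, but its 2 dimmer probes gave -0.031 and 0.080. BCL2 itself had 0.099 ± 0.093 and was above background in 6 antagonist and 3 control readings.

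Of 13 other pro-apoptotic members 7 were tested, 6 with a mean above 0 and 1 below. That 1 was BNIP3L, a mitophagy receptor with a BH3-like motif, at -0.36, -0.28 and -0.27 in cows 1, 2 and 3. It was negative on all 6 arrays, and its other probe gave -0.29, yet the adjusted p by limma was 0.283 (unadjusted p = 0.00347). BOK, a relative of BAX, had 0.078 ± 0.047, and BCL2L11, which encodes BIM, had 0.018 ± 0.094. BAD was below the filter, and no probe carried the symbols of BBC3 or PMAIP1.

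Of 6 other caspases tested, 5 had a mean below 0. CASP8, whose product cleaves BID, had ratios of 0.039, -0.66 and 0.23 in cows 1, 2 and 3 and was above background in 3 of 6 readings of each condition. CASP2 had -0.020 ± 0.10 and CASP4, an inflammatory caspase, -0.19 ± 0.24. In the apoptosome list APAF1, the partner of caspase-9, had 0.15, -0.15 and -0.50 and differed between cows (adjusted p = 8.84e-05). CYCS, which encodes cytochrome c, had 0.14 ± 0.10, and AIFM1, a mitochondrial flavoprotein linked to caspase-independent death, -0.15 ± 0.094. Of 10 genes tested in that list 4 were above 0 and 6 below.

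Among inhibitors of apoptosis, 4 of 5 had a mean below 0. BIRC6, a large ubiquitin ligase, had -0.32, -0.45 and -0.25 in cows 1, 2 and 3, negative on all 6 arrays, with an unadjusted p of 0.00577 and an adjusted p of 0.286 by limma. Its other probe gave -0.18. XIAP, a direct inhibitor of caspase-9, had -0.12 ± 0.11, and BIRC5, which encodes survivin, -0.071 ± 0.15 with another probe at 0.43. In the death receptor list 6 of 8 were above 0. FADD, the adaptor that recruits caspase-8, had 0.077, 0.49 and 0.34, a mean of 0.30 ± 0.21 (limma, unadjusted p = 0.0445, adjusted p = 0.381), and its other probe gave 0.081.

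**Figure D4:**
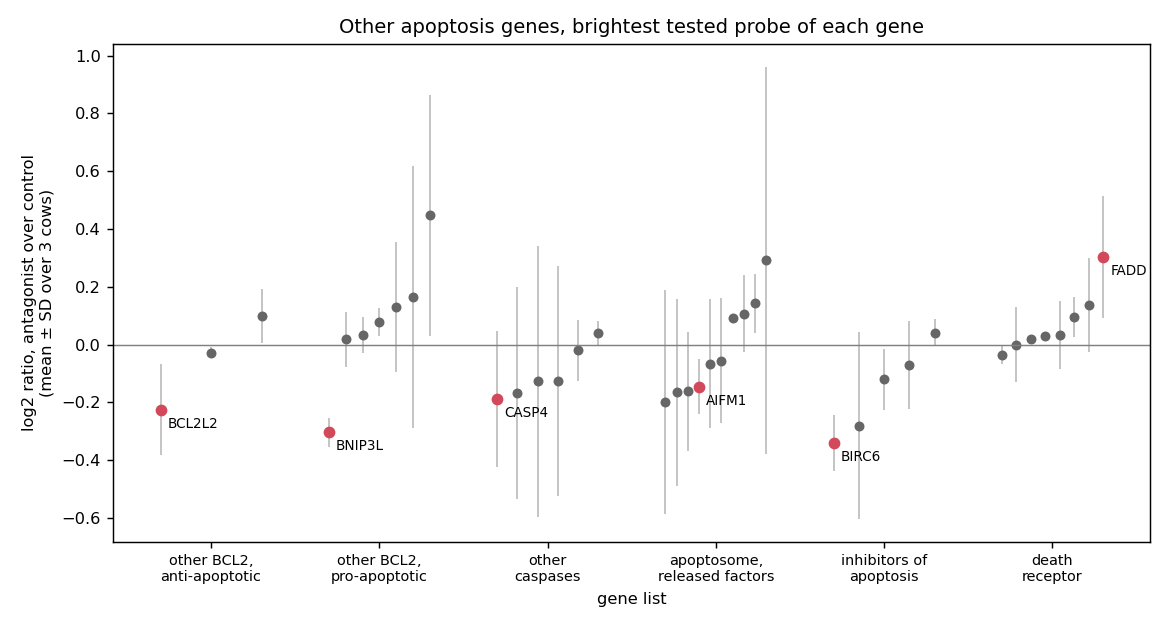
Mean log2 ratio of antagonist over control ± SD over 3 cows for the 39 other apoptosis genes tested, grouped by list, with the gene of smallest unadjusted p in each list named in red. Genes lie on both sides of 0 in each list, and BNIP3L and BIRC6 are the lowest in theirs with short error bars.

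The genes with ratios most like those of BID over the 6 arrays, by root mean square difference among 12313 other genes, were KRT8, an epithelial keratin, at 0.11, FBN1, which encodes fibrillin-1, at 0.13, and NAV1 at 0.15. KRT8 had cow means of -0.43, 0.88 and 0.40, close to those of BID. For BAX they were SLC5A2, a sodium-glucose transporter, at 0.030, C11H2orf42 at 0.036 and SECISBP2, which acts in selenoprotein synthesis, at 0.040. The dye effect was not removed before these comparisons. BAX had means of 0.099 with control in Cy5 and -0.27 with antagonist in Cy5, so likeness to BAX includes likeness in the dye effect. With 6 arrays of 3 cows such likeness is a description only.

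Markers of other cells were set beside the pattern of BID over cows. The granulosa and cumulus list, with 12 of 17 genes tested, had medians of -0.0039, -0.035 and 0.063 in cows 1, 2 and 3, and its summed normalised intensity ranged from 18290 to 36150 with antagonist and from 20190 to 34170 in controls. Most of this sum came from STAR, at a mean log2 intensity of 14.3, whereas no other tested gene of the list was above 11.4. LHCGR, AMH, FOXL2, CYP11A1 and AMHR2 were below the filter. Single markers moved far more than the median. INHA and INHBA, which encode inhibin subunits, had 0.20, -0.25 and 1.40, and -0.40, 0.12 and 1.48. HAS2, a hyaluronan synthase of expanding cumulus, had -0.0026, -0.98 and -0.38. The theca and stroma list (9 of 11 tested) had 0.078, -0.043 and 0.10, with sums of 4474 to 6998 and 3988 to 4657. In it VIM, which encodes vimentin, had 0.33, -0.043 and 1.52. INHA, INHBA and VIM were thus highest in cow 3, whereas BID was highest in cow 2. Other markers of the granulosa and theca lists were, like BID, lowest in cow 1 and highest in cow 2. STAR had -0.17, 0.14 and 0.049, INSL3 -0.033, 0.15 and 0.0031, and COL1A2 -0.32, 0.32 and 0.027. FSHR had -0.20, 0.21 and -0.15 and was above background in 3 of 6 readings of each condition. By the F-test between cows INSL3 was not called (adjusted p = 0.0625), whereas STAR, COL1A2 and FSHR were. The remaining tested markers of these lists were highest in cow 1 or cow 3. The blood and endothelium list (7 of 12 tested) had -0.023, 0.0040 and -0.011, with sums of 1609 to 2040 and 1672 to 2127. The oocyte list (15 of 15 tested) had 0.051, 0.20 and 0.13. In it H1FOO had -0.054, 1.45 and 0.59, MOS 0.52, 1.315 and 0.85, FIGLA -0.039, 0.35 and 0.30, and BMP15 -0.18, 0.20 and -0.013. NOBOX had 0.040, 0.44 and 0.13 and was above background in 2 of 6 control readings. Like BID, each of these oocyte markers was lowest in cow 1 and highest in cow 2, and the other oocyte markers had different orders. In cow 2, where BID was highest, the oocyte and the blood and endothelium medians were also at their highest, and the other 2 medians were at their lowest. Over all probes, too, the SD of the ratios was widest in cow 2, at 0.42 against 0.20 in cow 1 and 0.27 in cow 3. The part of these in the differences between cows was not tested.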

How the data were processed

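The scanner files hold raw spot intensity (mean and trimmed mean per dye) and local background, per the file headers. RNA was amplified and labelled with Cy3 and Cy5, per the labels' protocols; scanner and software settings: not given in the sources used here. Log2 ratios that the authors deposited in a separate table matched the scanner ratios turned to antagonist over control (r from 0.986 to 0.994 per array, slopes from 0.929 to 1.04, column medians from -0.0027 to 0.0018). How that table was normalized is unknown, and it served as an alternative, which for the tests of cows and dye and for the probes other than each gene's brightest was added after seeing the data.

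Of 45220 spots, 105 with ignored cells on any array were left out. Intensities were corrected by normexp (offset 50) and normalized by loess within arrays in limma 3.58.1 under R 4.3.3. Both arrays of a cow were averaged, since they share 2 extracts. The 3 cow values were tested against 0 by lmFit and eBayes, two-sided, with Benjamini-Hochberg adjustment over 32527 probes. Cows and dye were tested on the 6 arrays. The fit of the 3 cow values was tested on simulated data, and the tests of cows and dye were not checked in this way. The pairing by cow comes from the labels, since both RNAs of a cow share an array.

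Symbols came from the platform annotation, which can be old; all 7 occur in RefSeq's ARS-UCD2.0 table. A gene with several probes is represented by its brightest. Genes named besides the 7 are 13 fixed ones where tested, the gene of smallest p in each apoptosis list, and the 3 genes most like BID and BAX, which had the largest mean ratios. Cell type markers are named outside this rule. INHA, INHBA, HAS2, VIM, STAR, INSL3, COL1A2 and FSHR were chosen after their values were seen. So were H1FOO, MOS, FIGLA, BMP15 and NOBOX for their ratios by cow. Members and lists were chosen with earlier results of these data known, and 1 further list and some genes are not reported here. Alternatives covered background, spot summary, normalization, filter, arrays, pairing, variance model, the deposited ratios, slide, dye orientation and each cow left out.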

Additional observations from a re-analysis of the deposited data

Results flagged for a closer look

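A difference between cows in the ratio of antagonist over control drew attention to 3 of the 11 tested probes, a smaller share than the 47.4% of all probes called by the same test. By limma's F-test, whose error is that between the 2 arrays of a cow, BID had an adjusted p of 1.73e-06, with cow means of -0.42, 1.02 and 0.31 in cows 1, 2 and 3. The brightest MCL1 probe had 0.000174, with cow means of 0.32, -0.32 and -0.13, and the brightest CASP9 probe had 0.000243, with -0.37, 0.11 and 0.095. By these means cow 1 lay on the other side of 0 from cows 2 and 3 in each of the 3. The arrays of cow 3 were less clear, with -0.34 and 0.085 for MCL1 and 0.19 and 0.0028 for CASP9. Over all probes, too, the ratios of cow 1 correlated less with those of the other cows (0.192 and 0.285) than theirs with each other (0.781). The other probes of MCL1 and CASP9 were not called by this test. What underlies the differences was not tested.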

How the results depend on the processing

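None of the 11 tested probes of BCL2L1, MCL1, BAX, BID and CASP9 passed an adjusted p under 0.05 under any of the 18 alternatives tested. Over all probes limma called 0, but 848 with 6 arrays and the cow as a random replicate block with a dye term, 8 with no replicate block, 186 with antagonist in Cy5 alone and 109 with control in Cy5 alone. At an unadjusted p under 0.05, 3 of the 11 passed with antagonist in Cy5 alone, 1 with control in Cy5 alone and 1 on the 4 arrays of the shared slide number, and over all probes 4143 became 1276 with a trended, robust variance, 9401 with antagonist and 10223 with control in Cy5 alone, and 1591 to 7408 without 1 cow. The sign of several small means turned. For MCL1 it was 0.076 on the 4 arrays that share a slide number in the names of their files, 0.16 with antagonist in Cy5, and from -0.22 to 0.097 when 1 cow was left out (0.0015 without cow 3). BCL2L1 had -0.0031 with antagonist in Cy5, and BAX had 0.099 and CASP9 0.012 with control in Cy5. CASP9 ranged from -0.14 to 0.10 and BID from -0.055 to 0.66 without 1 cow. On a single orientation the dye effect is not cancelled. Otherwise the cause was not tested. Normalization without loess left 4 of the 11 probes called between cows in place of 3. Dim signal limits BCL2L1, BAX and BAK1 most.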
